A study of Mus musculus with 4 samples.

Results

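Aminoacyl-tRNA synthetases attach each amino acid to its tRNA and so supply every round of translation. Animal cells keep separate sets for the cytosol and for mitochondria, and both sets are encoded in the nucleus and made on cytosolic ribosomes. Several cytosolic enzymes sit in a multisynthetase complex held together by the scaffold proteins AIMP1, AIMP2 and AIMP3. In mouse embryonic stem cells these genes are housekeeping genes, and many cytosolic ones are known targets of the amino acid response factor ATF4.

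The 38 genes described here were taken by name from the 37311 gene identifiers in the deposited count tables by a rule that names the genes and uses no measured value, though it was written with earlier results of these data known. They comprise 20 genes for cytosolic enzymes, 16 for mitochondrial enzymes and the scaffolds Aimp1 and Aimp2. Each symbol matched a single identifier, and all 38 passed the count filter, with 947 to 8239 counts per library for the cytosolic enzymes and 40 to 829 for the mitochondrial ones.

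The libraries are ribosome protected fragments (RPF, the pieces of mRNA shielded by ribosomes) and total RNA, each in 2 replicates. All 4 came from J1 embryonic stem cells (strain 129S4/SvJae, kept without feeders in serum with LIF) that carried short hairpins against eIF4A3, the helicase of the exon junction complex. The labels name 2 hairpins, selection with 1 μg/mL puromycin for 3 days, harvest on day 4.5 and cycloheximide at 0.1 mg/mL for 1 min before lysis; which replicate received which hairpin is not given in the sources used here. Unmodified cells were not analysed here, so every comparison below is between fractions of knockdown cells and none measures an effect of the knockdown.

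Depth was 9434987 and 7615277 gene counts in RPF, against 8969965 and 8218020 in total RNA. The members held 0.747% and 0.693% of them in RPF and 0.554% and 0.512% in total RNA. Levels are CPM, counts scaled to library size with TMM factors, and "ratio" stands for log2 of RPF over total RNA. The 7 stem cell markers (Pou5f1, Sox2, Nanog, Klf4, Esrrb, Zfp42 and Dppa5a) summed to 5303 and 5258 CPM in RPF and 3713 and 3617 CPM in total RNA. The 6 fibroblast markers summed to 7.63 and 6.71 CPM in RPF and 2.55 and 2.58 CPM in total RNA, with Dcn at 0 counts in every library. Eif4a3, the hairpin target, had 1640 and 1325 counts in RPF and 1229 and 975 counts in total RNA. No label ties the replicates to separate cultures beyond calling them biological, so p-values measure the spread between these samples.

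Messages of the cytosolic synthetases carried more footprints per total RNA than most genes did, from the 67.7th percentile of all ratios for Cars to the 97.4th for Rars, while those of the mitochondrial synthetases were spread around the median of all genes. The ratio was higher for 18 of 20 cytosolic enzymes, lower for 0, and did not pass for Cars and Vars. It was higher for 4 of 16 mitochondrial enzymes, lower for 0, and did not pass for 12. Over all 13809 genes tested 20.5% were higher and 21.2% lower (edgeR's quasi-likelihood test, Benjamini-Hochberg adjusted p under 0.05), or 41.7% in either direction. Over protein-coding genes 20.8% were higher and 19.3% lower. At an unadjusted p under 0.05, 0 cytosolic and 2 mitochondrial enzymes (Hars2 and Wars2) were lower. DESeq2's test called 0 lower in either set, while 1 mitochondrial enzyme was lower at a mean of at least 10 CPM (Hars2), after correction for coding share (Pars2) and without RPF replicate 2 (Wars2). More mitochondrial enzymes were lower with library size only (5, against 35.9% of all genes) and with replicate number as a block (4, against 31.6%). The median ratio was 0.91 for cytosolic enzymes, -0.0042 for mitochondrial enzymes and -0.024 for all genes tested. Both RPF libraries lay above both total RNA libraries for 19 of 20 cytosolic enzymes, against 34.9% of all genes tested. Among mitochondrial enzymes this held for 5, and for 5 others both RPF libraries lay below, against 37.9% of all genes tested. The difference between the sets is given as a description and was not tested.

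The counts rest on scaling and on total RNA replicate 2 more than the gap between the sets does. With library size in place of TMM factors the median of all genes moved to -0.46, 1223 genes were higher and 4961 lower, and the members called were 10 cytosolic higher, 2 mitochondrial higher and 5 mitochondrial lower. Without total RNA replicate 2, 8 cytosolic and 2 mitochondrial enzymes were higher, against 12% of all genes. The median of the cytosolic set stood above that of the mitochondrial set by 0.72 to 1.02 over the 12 alternatives, against 0.915 as reported.

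**Figure D1:**
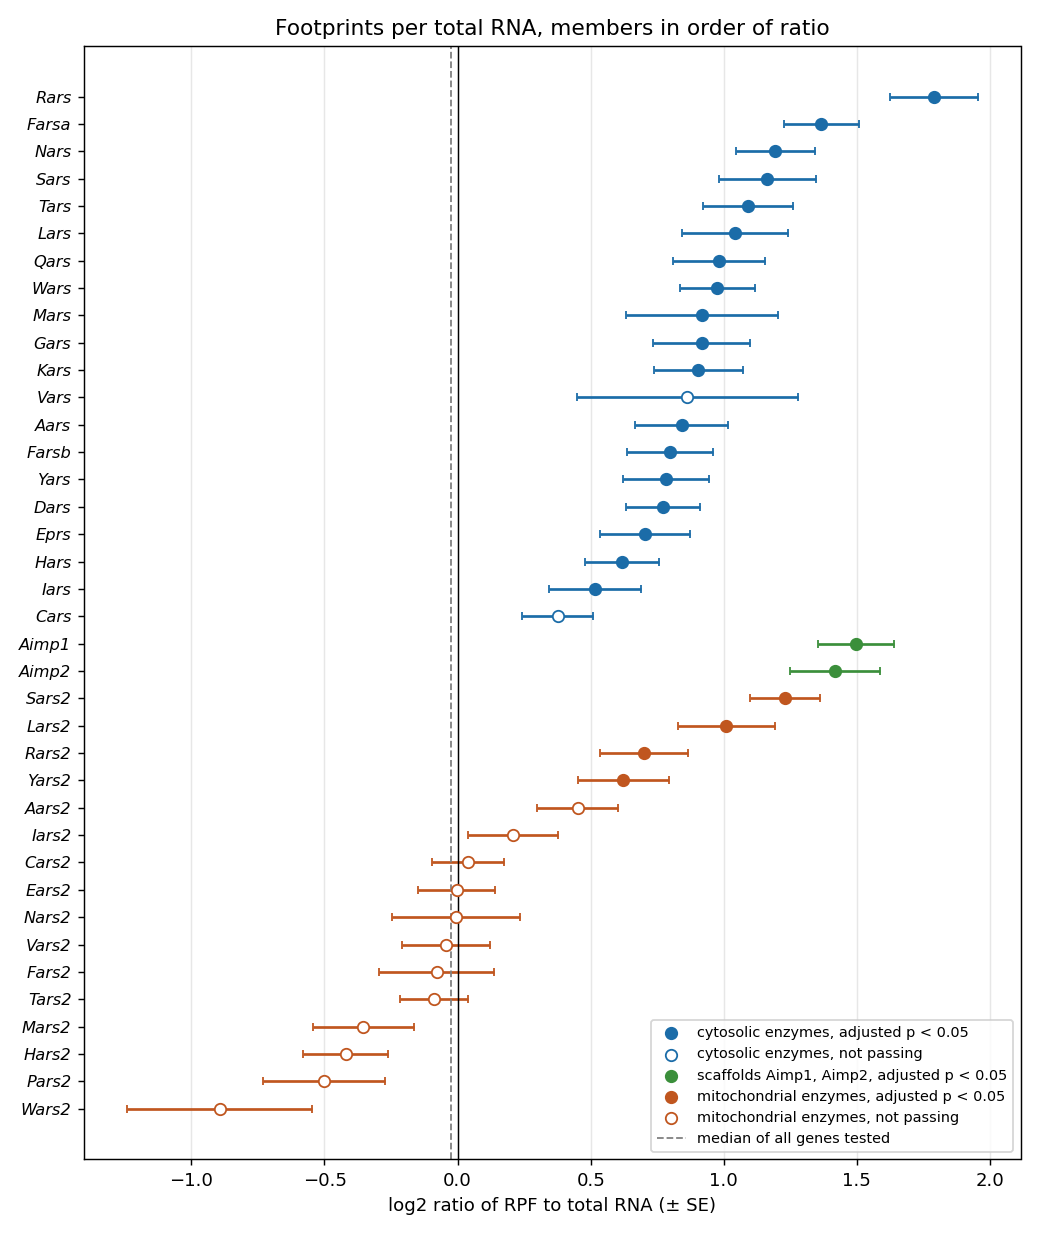
Log2 of RPF over total RNA for each of the 38 members, with the standard error of the fit, ordered within cytosolic enzymes, scaffolds and mitochondrial enzymes. Filled points passed at an adjusted p under 0.05, and the dashed line is the median of all genes tested (-0.024). All 20 cytosolic enzymes lie above it, from 0.38 for Cars to 1.79 for Rars.

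The windows around the annotated start codon are shown for the cytosolic and mitochondrial enzymes at both ends of the order of ratios, since the start codon is where ribosomes enter the coding sequence. They are from GENCODE M21 transcripts, written 5′ to 3′ with the start codon in capitals. Rars, Farsa and Sars had the highest cytosolic ratios among genes with a window, and Eprs, Iars and Cars the lowest. Sars2 and Lars2 were the highest mitochondrial ones, and Pars2 and Wars2 the lowest.
Rars: tgacgagaggATGgacggtc
Farsa: gggagtagccATGgcggata
Sars: aggtagaaggATGgtgctgg
Eprs: ctcctgggagATGgcggcgc
Iars: cagcaacagaATGgttcaac
Cars: attcccagtgATGgcaggtt
Sars2: ccactccaagATGgctgcgt
Lars2: ctcctgaagaATGgcatcca
Pars2: ccagggtgtcATGgaaggtc
Wars2: ccttctcaagATGgcgctgt
Each of these 10 windows has a purine 3 bases before the start codon and a G directly after it, the arrangement known to favour initiation, at the high and the low end alike. Among the 17 cytosolic enzymes with a window, 13 had the purine and 10 the G, and among the 14 mitochondrial ones 12 had the purine and 9 the G. Hars, Lars, Nars, Hars2 and Yars2 were not analysed for this feature here.

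The enzymes of the multisynthetase complex were higher in all 8 cases (Eprs, Iars, Lars, Mars, Qars, Kars, Rars and Dars), with a median of 0.91. Rars, which charges tRNA with arginine, had 488 and 411 CPM in RPF and 136 and 124 CPM in total RNA. The RPF libraries lay well above the total RNA libraries, and its ratio was the highest of all members (1.79 ± 0.17 SE, adjusted p = 0.000743). Eprs, which joins the glutamyl and prolyl enzymes in a single protein, had 689 and 573 CPM in RPF and 382 and 392 CPM in total RNA. Its groups did not overlap (0.70 ± 0.17, adjusted p = 0.0154), but the call was lost with library size only (0.27, adjusted p = 0.171). The call was also lost when either total RNA library was left out (0.68 without replicate 1 and 0.72 without replicate 2). Iars, the isoleucyl enzyme, had 396 and 314 CPM in RPF and 260 and 236 CPM in total RNA. Its groups were separate but close (0.52 ± 0.17, adjusted p = 0.0474), and it was called under 4 of 12 alternatives.

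Kars, the lysyl enzyme, and Gars, the glycyl enzyme, each supply both compartments from a single gene. Kars had 542 and 489 CPM in RPF and 299 and 252 CPM in total RNA. Gars had 524 and 446 CPM in RPF and 286 and 227 CPM in total RNA. Neither gene's groups overlapped, and the ratios were close to the cytosolic median, at 0.90 ± 0.17 for Kars (adjusted p = 0.00575) and 0.92 ± 0.18 for Gars (adjusted p = 0.00741). Without total RNA replicate 2 neither passed (adjusted p = 0.0714 and 0.0778).

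The scaffolds Aimp1 and Aimp2 had higher ratios than every enzyme of the complex except Rars, though those differences were not tested. Aimp1, a scaffold that also gives rise to a secreted cytokine, had 202 and 221 CPM in RPF and 78.3 and 71.7 CPM in total RNA. Aimp2, the core scaffold, had 128 and 99.1 CPM in RPF and 44.7 and 40.4 CPM in total RNA. Footprints stood far above total RNA for both, with ratios of 1.5 ± 0.14 for Aimp1 (adjusted p = 0.000776) and 1.42 ± 0.17 for Aimp2 (adjusted p = 0.00136), and both were called under all 12 alternatives. Exons of Eif2ak1 on the opposite strand cover 29.4% of the exon length of Aimp2, and the strand setting of the counting is not given in the sources used here. Eef1e1, which encodes the remaining scaffold AIMP3, had 40.3 and 36.9 CPM in RPF and 41.1 and 34.6 CPM in total RNA. Its groups overlapped, and its ratio was 0.029 ± 0.16 (adjusted p = 0.901).

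Among the 12 cytosolic enzyme genes outside the complex 10 were higher and 2 did not pass, with a median of 0.89. Farsa and Farsb encode the catalytic and the partner subunit of the phenylalanyl enzyme, which is built from both. Farsa had 333 and 317 CPM in RPF and 129 and 123 CPM in total RNA, a difference far wider than that between its replicates (1.37 ± 0.14, adjusted p = 0.000946). Farsb had 222 and 180 CPM in RPF and 121 and 110 CPM in total RNA, also without overlap (0.80 ± 0.16, adjusted p = 0.0077). Per kilobase, footprints came to 213 CPM per coding kb for Farsa and 108 CPM per coding kb for Farsb, while total RNA came to 27.8 and 44.2 CPM per exon kb. Exon lengths include every annotated isoform, so levels per exon kb are lowered where long or intron-retaining isoforms are annotated.

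Nars, the asparaginyl enzyme, had 498 and 516 CPM in RPF and 224 and 219 CPM in total RNA. Sars, the seryl enzyme, had 318 and 243 CPM in RPF and 135 and 115 CPM in total RNA. Neither gene's groups overlapped, and both stood high in the set, at 1.19 ± 0.15 for Nars (adjusted p = 0.00154) and 1.16 ± 0.18 for Sars (adjusted p = 0.00322). Hars, the histidyl enzyme, had 157 and 164 CPM in RPF and 111 and 98.6 CPM in total RNA. Its groups were separate by a small margin (0.62 ± 0.14, adjusted p = 0.0118), and it did not pass without either total RNA library (adjusted p = 0.0516 and 0.145). Cars, the cysteinyl enzyme, had 199 and 194 CPM in RPF and 148 and 155 CPM in total RNA. Its groups did not overlap, but its ratio was the lowest of the cytosolic set and did not pass (0.38 ± 0.13, adjusted p = 0.059).

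In the cytosolic set 8 enzymes, Farsa, Lars, Nars, Qars, Rars, Sars, Tars and Wars, were called under all 12 alternatives. The share of all genes called under every alternative was not counted, so this number has no background beside it. The ratios not yet given ran from 0.77 for Dars, the aspartyl enzyme, to 1.09 for Tars, the threonyl enzyme. Split by fold of the catalytic domain, with Eprs, which holds a domain of each class, counted in class I, 8 of 10 class I enzymes and 10 of 10 class II enzymes were higher, with medians of 0.89 and 0.91. Of the 13 genes commonly listed as ATF4 targets 11 were higher, with a median of 0.92, and of the 7 others 7 were higher, with a median of 0.90.

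**Figure D2:**
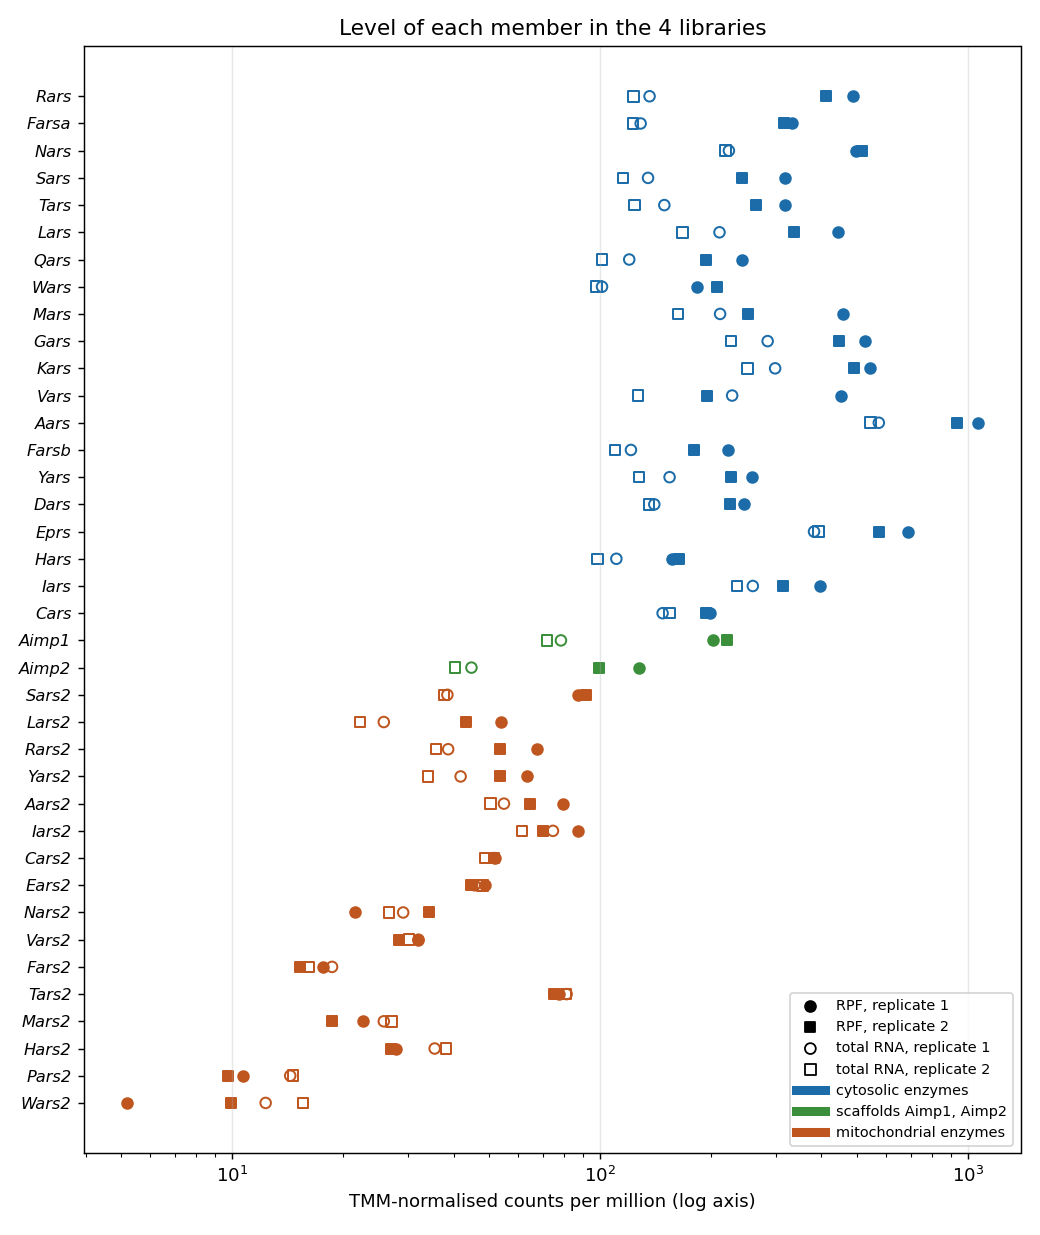
Level of each member in the 4 libraries, in TMM-normalised CPM on a log axis, with filled symbols for RPF and open symbols for total RNA. For every cytosolic enzyme except Vars, and for Aimp1 and Aimp2, both filled symbols lie to the right of both open ones. For 6 mitochondrial enzymes the symbols overlap.

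Mitochondrial enzymes ranged from -0.89 to 1.23. Sars2, the mitochondrial seryl enzyme, had 87.3 and 91.4 CPM in RPF and 38.5 and 37.7 CPM in total RNA. Lars2, the leucyl enzyme, had 53.8 and 43.2 CPM in RPF and 25.9 and 22.3 CPM in total RNA. Both had non-overlapping groups and were called under all 12 alternatives, with ratios of 1.23 ± 0.13 for Sars2 (adjusted p = 0.00105) and 1.01 ± 0.18 for Lars2 (adjusted p = 0.00526). Rars2, the arginyl enzyme, had 67.5 and 53.5 CPM in RPF and 38.7 and 35.8 CPM in total RNA, and Yars2, the tyrosyl enzyme, had 63.5 and 53.4 CPM in RPF and 41.8 and 34.1 CPM in total RNA. Their ratios of 0.70 ± 0.17 (adjusted p = 0.0146) and 0.62 ± 0.17 (adjusted p = 0.0252) passed. Neither passed with library size only (0.26 and 0.19, adjusted p = 0.228 and 0.398) or after adjustment for coding share (adjusted p = 0.0559 and 0.0545). Both calls were also lost without total RNA replicate 2, where the ratios were 0.64 and 0.48.

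At the other end of the set stood Wars2, the tryptophanyl enzyme, with 5.17 and 9.91 CPM in RPF and 12.3 and 15.6 CPM in total RNA. The RPF libraries lay below the total RNA libraries but differed between themselves, and its ratio did not pass (-0.89 ± 0.35, adjusted p = 0.0772). It rested on 40 and 68 RPF counts, and it passed without RPF replicate 2 (-1.41, adjusted p = 0.000494) but stood at -0.48 without RPF replicate 1 (adjusted p = 0.228). Pars2, the prolyl enzyme, had 10.7 and 9.77 CPM in RPF and 14.4 and 14.7 CPM in total RNA, and Hars2, the histidyl enzyme, had 27.9 and 27.1 CPM in RPF and 35.5 and 38.2 CPM in total RNA. Their groups did not overlap, and the ratios of -0.50 ± 0.23 (adjusted p = 0.119) and -0.42 ± 0.16 (adjusted p = 0.069) did not pass. Aars2, the alanyl enzyme, stood just outside the threshold on the higher side (0.45 ± 0.15, adjusted p = 0.0511), with 79.1 and 64.7 CPM in RPF and 54.8 and 50.5 CPM in total RNA. Of the remaining members, Mars2 stood at -0.35 ± 0.19, and Cars2, Ears2, Fars2, Iars2, Nars2, Tars2 and Vars2 lay between -0.09 and 0.21. Exons of genes on the opposite strand cover 24.2% of the exon length of Iars2, the largest share in the mitochondrial set.

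Mitochondrial enzymes also had lower levels, and the sets did not overlap per length. In total RNA cytosolic enzymes ran from 16.8 CPM per exon kb for Qars to 82.2 for Gars, and mitochondrial enzymes from 2.17 for Lars2 to 13.4 for Rars2. In RPF the range was 78.8 (Cars) to 344 (Aars) CPM per coding kb for cytosolic enzymes and 6.40 (Pars2) to 54.1 (Sars2) for mitochondrial ones. Exosc6 on the same strand shares 14.3% of the exon length of Aars, which makes the counts of Aars less certain. Summed levels of the cytosolic set were 8033 and 6684 CPM in RPF and 4123 and 3639 CPM in total RNA. Those of the mitochondrial set were 754 and 690 CPM in RPF and 621 and 588 CPM in total RNA. The cytosolic sum was thus 10.7 and 9.68 times the mitochondrial sum in RPF and 6.64 and 6.19 times in total RNA. Level and set move together: 19 of 20 cytosolic enzymes and 0 of 16 mitochondrial ones had at least 100 CPM in total RNA. Of all protein-coding genes at that level 33.9% were higher (median ratio 0.19), against 23.2% (median -0.018) at 10 to 100 CPM. Across the members, which share the same libraries, the ratio correlated with total RNA per exon kb on a log scale (Pearson's r = 0.664, Spearman's rho = 0.567, n = 38 genes). Within the sets r was 0.02 over 20 cytosolic enzymes and 0.402 over 16 mitochondrial ones.

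For each mitochondrial enzyme the cytosolic enzyme for the same amino acid was set beside it, which gave 16 pairs, with Eprs serving both Ears2 and Pars2 and Farsa serving Fars2. The cytosolic gene had the higher ratio in 15 of 16 pairs, and the higher level per length in 16 of 16 pairs in each of the 4 libraries. The widest gap in ratio was that of tryptophan, at 0.98 ± 0.14 for Wars and -0.89 ± 0.35 for Wars2. It was followed by phenylalanine, at 1.37 for Farsa and -0.079 for Fars2, and by methionine, at 0.92 for Mars and -0.35 for Mars2. Serine was the exception, at 1.16 ± 0.18 for Sars and 1.23 ± 0.13 for Sars2, and leucine came close to it, at 1.04 ± 0.20 for Lars and 1.01 ± 0.18 for Lars2. In these 2 pairs the difference was smaller than the standard errors. Total RNA levels of Lars were 16.3 times those of Lars2 per exon kb, against 2.12 times for Sars over Sars2. Exons of all annotated isoforms span 11089 bases in Lars2 and 5368 bases in Lars, which widens the fold for leucine. Before division by length, mean total RNA was 189 CPM for Lars and 24.1 CPM for Lars2. In RPF per coding kb the folds were 6.42 for leucine and 3.23 for serine. Mean levels for leucine were 35.3 CPM per exon kb for Lars and 2.17 for Lars2, and for serine 24.4 for Sars and 11.5 for Sars2.

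**Figure D3:**
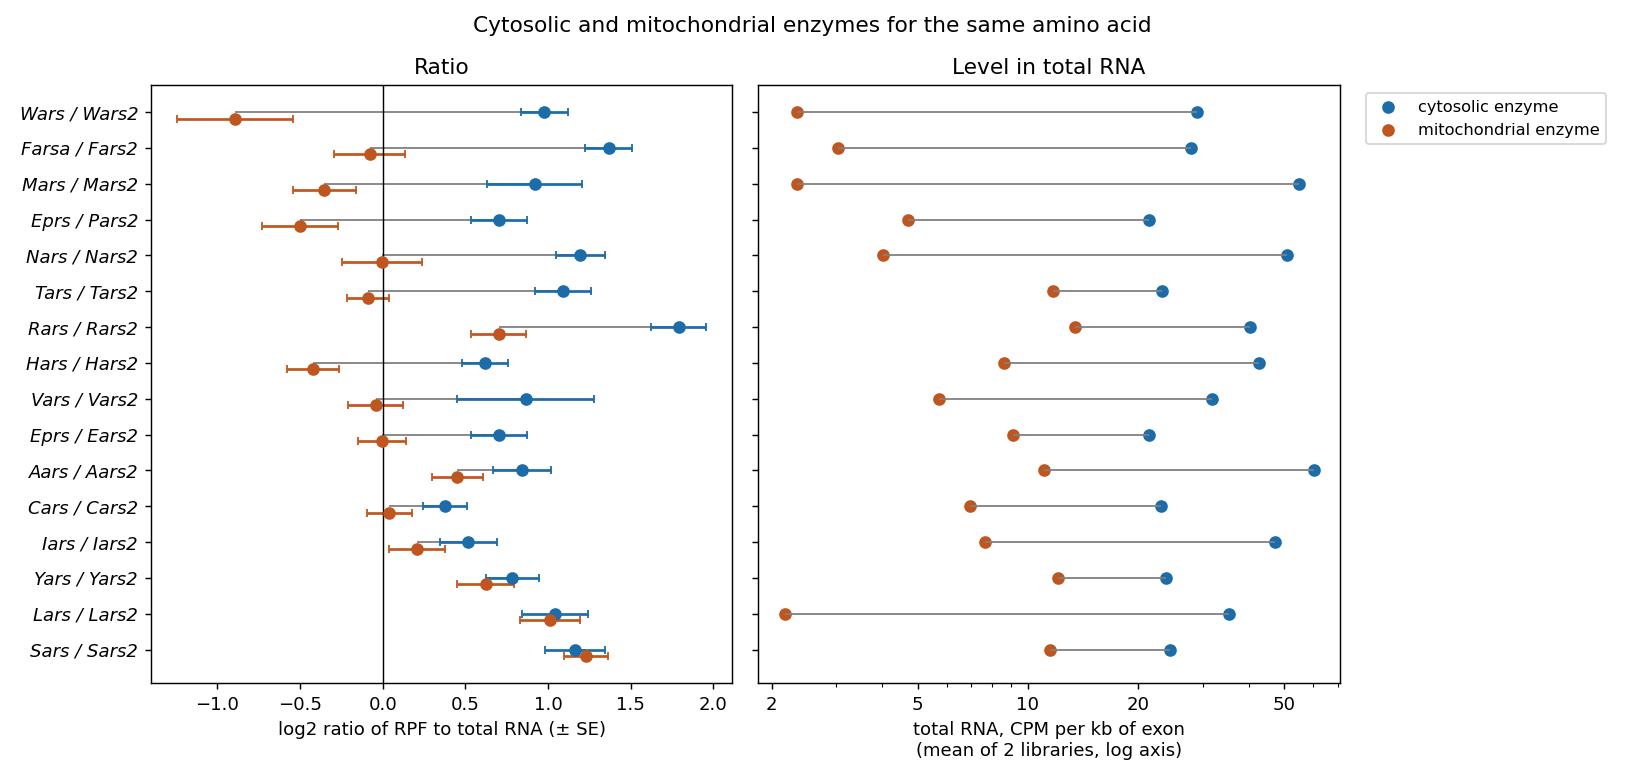
Pairs of cytosolic and mitochondrial enzymes for the same amino acid, ordered by the difference in ratio. The left panel shows log2 of RPF over total RNA with standard errors, and the right panel the mean total RNA level in CPM per kb of exon on a log axis. The cytosolic gene lies to the right in 15 of 16 pairs on the left and in 16 of 16 on the right.

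Replicate 1 was above replicate 2 for most cytosolic enzymes in both fractions. This was so for 17 of 20 in RPF, against 49.5% of all genes tested, and for 18 of 20 in total RNA, against 48.6%. The median fold of replicate 1 over replicate 2 was 1.18 in RPF and 1.11 in total RNA for the cytosolic set and 1.11 and 1.06 for the mitochondrial set. Vars, the valyl enzyme, differed most, with 452 and 195 CPM in RPF and 229 and 127 CPM in total RNA. Its RPF level in replicate 2 lay below its total RNA level in replicate 1, so its groups overlapped and its ratio did not pass (0.86 ± 0.42, adjusted p = 0.136), although it was 0.98 within replicate 1 and 0.62 within replicate 2. It passed without RPF replicate 2 (1.36, adjusted p = 5.02e-08) and without total RNA replicate 1 (1.35, adjusted p = 0.0104), but stood at 0.15 without RPF replicate 1 (adjusted p = 0.62) and at 0.50 without total RNA replicate 2 (adjusted p = 0.316). Mars, the methionyl enzyme, had 456 and 252 CPM in RPF and 212 and 163 CPM in total RNA. It passed (0.92 ± 0.29, adjusted p = 0.0385), but was called under only 7 of 12 alternatives. The call was lost with library size only, at a mean of at least 10 CPM and after correction for coding share. It was also lost without RPF replicate 1 (ratio 0.44) and without total RNA replicate 2 (ratio 0.74). Wars2 and Nars2 went the other way in RPF, with replicate 1 at 0.522 and 0.63 times replicate 2. No other member differed between RPF replicates by as much as these 4.

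**Figure D4:**
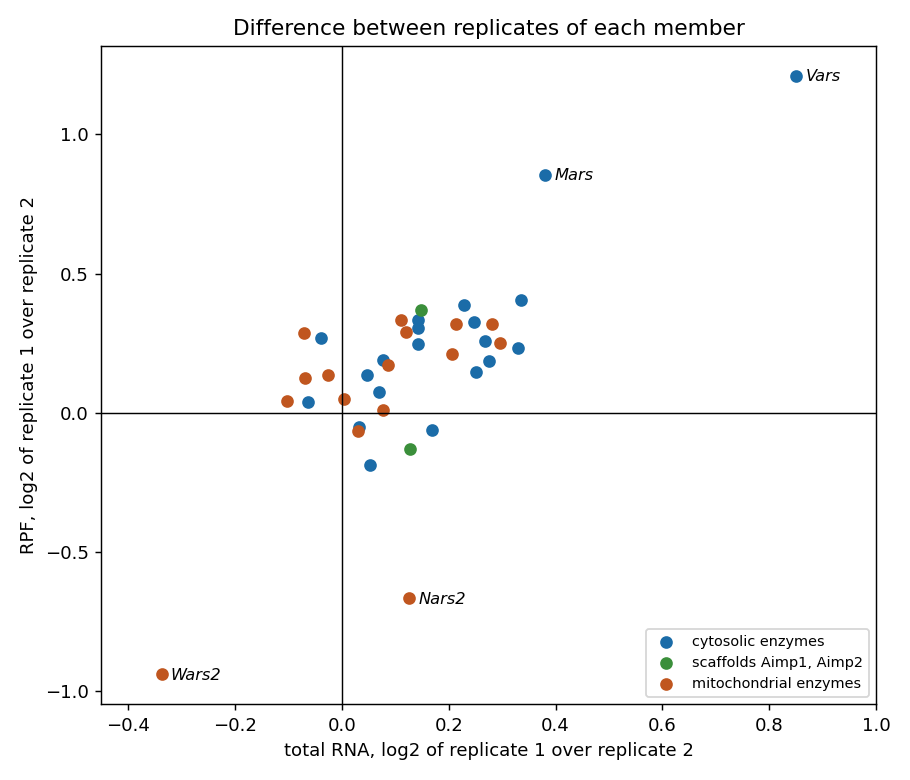
Log2 of replicate 1 over replicate 2 for each member, in total RNA on the horizontal axis and in RPF on the vertical axis, coloured by set. Most members lie above and to the right of 0, with Vars (2.31-fold in RPF and 1.8-fold in total RNA) and Mars (1.81-fold and 1.3-fold) farthest out there, and Wars2 (0.522-fold and 0.792-fold) lies at the lower left.

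Ribosomes cover coding sequence whereas total RNA covers whole exons, so the coding share of the exons was set beside the ratio. It correlated with the ratio at r = 0.292 (rho = 0.231) over 38 members, at r = -0.0579 over the cytosolic set and at r = 0.40 over the mitochondrial set. Its median was 41.2% for cytosolic and 33.2% for mitochondrial enzymes. After a correction for coding share the medians were 0.82 and 0.10, and 15 cytosolic and 2 mitochondrial enzymes were higher. Under that correction 1 mitochondrial enzyme, Pars2, was lower. Over all the protein-coding genes in that fit 20.5% were higher and 18.8% lower. Annotated 3′ untranslated regions had a median of 268.5 bases in the cytosolic set and 561.5 bases in the mitochondrial set. They were longest in Mars2 (9473 bases) and Wars2 (3299 bases), which were among the lowest ratios, and over all 38 members the ratio correlated with their log length at r = -0.46 (rho = -0.36, across genes). Within the sets r was -0.162 (rho = -0.125) over 20 cytosolic enzymes and -0.459 (rho = -0.429) over 16 mitochondrial ones. An ATG upstream of the annotated start codon was present in 5 of 20 cytosolic and 7 of 16 mitochondrial messages. In the cytosolic set 5 of 5 messages with an upstream ATG were higher, with a median of 0.98, and 13 of 15 without it, with a median of 0.86. In the mitochondrial set 1 of 7 with an upstream ATG was higher, with a median of -0.043, and 3 of 9 without it, with a median of 0.21.

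The promoters of 29 members were found in a table of RefSeq promoters (250 bases before to 50 bases after the gene start, GRCm38.p6). The motif TGATGNAA, in which N is any base, is the core of the C/EBP-ATF response element bound by ATF4. On either strand it occurred in 5 of 13 cytosolic genes with a promoter, 0 of 14 mitochondrial genes and 0 of 2 scaffolds, against 3.97% of all 32851 promoters. A match in each of the 5 genes is shown because it marks a sequence feature that was not used to choose the set. Aars also holds another match, which starts 112 bases before its gene start and is not shown. The motif is in capitals, reading as its reverse complement in all but Yars.
Aars: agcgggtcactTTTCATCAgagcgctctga
Gars: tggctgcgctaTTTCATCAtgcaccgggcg
Iars: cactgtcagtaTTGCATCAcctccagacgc
Tars: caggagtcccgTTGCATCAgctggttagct
Yars: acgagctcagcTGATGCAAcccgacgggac
These windows lie at chr8:111033840-111033869 for Aars, chr6:55037960-55037989 for Gars, chr13:49682126-49682155 for Iars, chr15:11399655-11399684 on the minus strand for Tars and chr4:129189895-129189924 for Yars. The capitals in Yars include the start codon of its GENCODE transcript. The ratios of these genes ran from 0.52 for Iars to 1.09 for Tars and did not set them apart from the other cytosolic enzymes. A match is a description of the sequence and no evidence of binding.

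Of 20 other genes for tRNA charging and supply, 4 were higher, 2 lower and 14 did not pass, with a median of 0.23, so the share higher was near the 20.5% of all genes tested and the share lower was under their 21.2%. The highest were Aarsd1 (1.04 ± 0.25, adjusted p = 0.0147), Ppa1 (0.82 ± 0.19, adjusted p = 0.0138) and Ptrh2 (0.81 ± 0.18, adjusted p = 0.0114). Aarsd1 clears mischarged alanine tRNA, Ppa1 is the cytosolic pyrophosphatase that removes a product of charging, and Ptrh2 is a peptidyl-tRNA hydrolase. Aarsd1 had 126 and 81.4 CPM in RPF and 58.7 and 42.1 CPM in total RNA, and 41% of its exon length is shared with Gm27029 on the same strand, which makes its counts uncertain. The lowest were Elac1, a tRNA 3′ end repair enzyme (-1.18 ± 0.26, adjusted p = 0.0111), Sepsecs, which makes selenocysteinyl-tRNA (-0.98 ± 0.18, adjusted p = 0.00598), and Mtfmt, which formylates the mitochondrial initiator tRNA (-0.53 ± 0.30, adjusted p = 0.198). Sepsecs had 16.03 and 19.54 CPM in RPF and 34.9 and 35.4 CPM in total RNA, without overlap. Gatb, Gatc and Qrsl1, the subunits of the amidotransferase that makes mitochondrial glutaminyl-tRNA, did not pass, at -0.15 ± 0.25, 0.16 ± 0.33 and 0.033 ± 0.17. Xpot, the tRNA export receptor, stood at -0.31 ± 0.15 (adjusted p = 0.145).

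**Figure D5:**
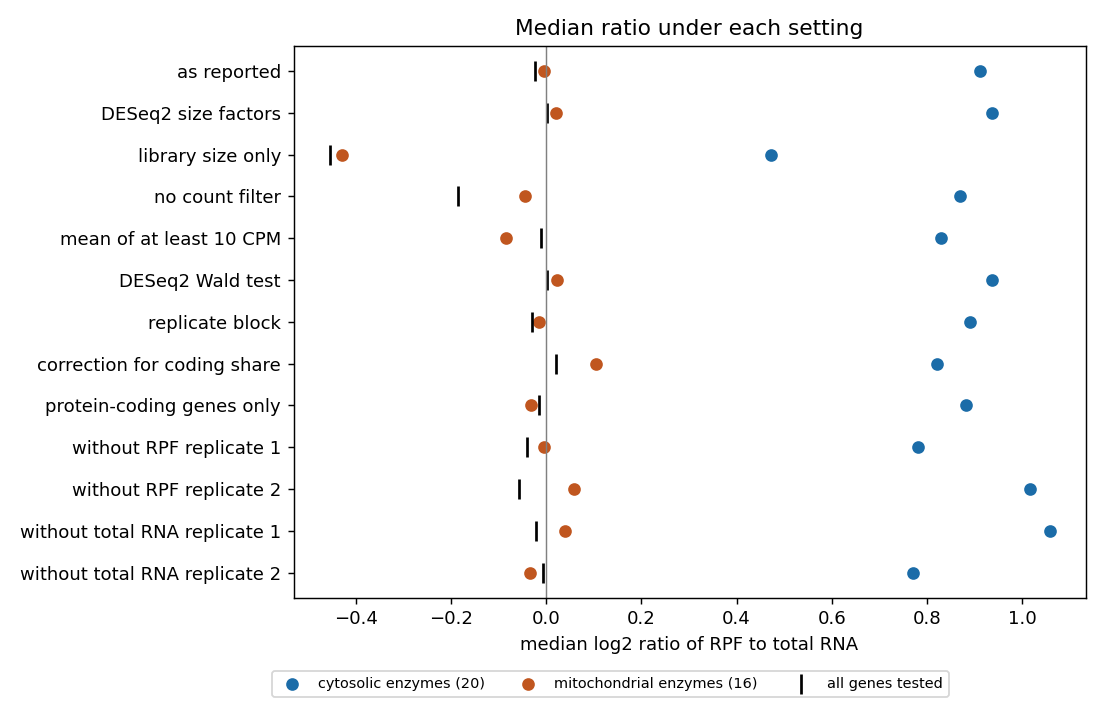
Median log2 of RPF over total RNA for the 20 cytosolic enzymes, the 16 mitochondrial enzymes and all genes tested, as reported and under the 12 alternatives. The cytosolic median lies above the other medians under every setting shown, between 0.47 with library size only and 1.06 without total RNA replicate 1.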

How the data were processed

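For each library the deposited file holds the authors' raw counts by Ensembl gene, with no normalisation. Per the labels, libraries came from the TruSeq Ribo Profile kit with ribosomal RNA removal, single-end reads were 50 bases long and RPF libraries were sequenced 4 times. Bowtie 1.2.3, TopHat2 2.1.1, HTSeq 0.11.2, edgeR 3.26.8 and the build mm9 are named in the submitters' processing notes. The strand setting, counted feature and annotation release were not given in the sources used. Tallies of reads with no feature, ambiguous reads and reads aligned more than once were left out. They made up 5.95% and 6.66%, 4.96% and 8.58%, and 21.1% and 20.6% of the tallied reads in RPF, and 23.4% and 26.2%, 0.755% and 0.719%, and 16.6% and 16.6% in total RNA.

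GENCODE M21 (GRCm38) named 32621 identifiers (87.4%), matched without version. Its transcripts gave lengths, start codon windows and the exon overlap between genes. Counts were fitted in edgeR 4.0.16 (R 4.3.3) by quasi-likelihood with fraction as the only term, TMM factors (0.821 and 0.902 for RPF, 1.14 and 1.18 for total RNA) and filterByExpr (minimum count 10, minimum total 15). P-values were two-sided and adjusted by Benjamini-Hochberg over 13809 genes, with a threshold of 0.05. SE is the size of the log2 ratio over the square root of F. The fit was tested on simulated data in which few genes changed, in equal numbers up and down. That does not check the scaling of these data, in which 41.7% of genes tested were called. A count of 0 allows up to 3 counts, or 0.318 and 0.394 CPM in RPF and 0.334 and 0.365 CPM in total RNA, which covers counting error only.

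The 12 alternatives changed the scaling (DESeq2 size factors, or library size only), the filter (none, or a mean of 10 CPM and above), the test (DESeq2 1.42.0, Wald), the model (replicate block), the gene set (protein-coding) or the ratio (corrected for coding share by loess, span 0.5), or left out each library. Full values are given for the 4 highest and 4 lowest cytosolic and the 3 highest and 3 lowest mitochondrial ratios. They are also given for the scaffolds, Gars and Kars. The 3 highest and 3 lowest of the other charging genes have ratio, SE and adjusted p. Of these, only Aarsd1 and Sepsecs also have library levels. Values of other genes are given where a sentence needs them. Members and lists were chosen with earlier results of these data known.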

Additional observations from a re-analysis of the deposited data

How the results depend on the processing

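With library size only, all genes gave 1223 higher and 4961 lower calls, the cytosolic set 10 higher (median 0.47) and the mitochondrial set 2 higher and 5 lower (median -0.43), while Cars (-0.057), Cars2 (-0.39) and Iars2 (-0.23) changed sign. At a mean of at least 10 CPM 1 mitochondrial enzyme was lower (median -0.085) and Cars2 stood at -0.042. After correction for coding share 2 mitochondrial enzymes were higher and 1 lower (median 0.10), and Ears2 (0.0502), Fars2 (0.032) and Nars2 (0.21) changed sign. Ears2 (0.022) and Nars2 (0.0204 and 0.0213) also did so with DESeq2 size factors and the DESeq2 test, and Cars2 (-0.0022) without a count filter. None of these members passed as reported or under the setting named. The fit with replicate number as a block gave 4257 higher calls over all genes, 20 of 20 cytosolic enzymes higher, and 4 mitochondrial enzymes lower (Hars2, Mars2, Pars2 and Wars2). The labels do not say that the number marks a shared lysate, and deviations of libraries with the same number correlated at 0.475 across genes. The other counts and medians of the sets stayed within 1.5 times or 1 SD under these settings.

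Leaving out each library in turn gave 1720 to 3341 higher and 1857 to 3440 lower calls over all genes, 8 to 19 cytosolic enzymes higher, and 2 to 5 mitochondrial enzymes higher with 0 to 1 lower. The lowest numbers of higher calls came without total RNA replicate 2. The medians ran from 0.77 to 1.06 and from -0.034 to 0.058. Where a fraction kept 1 library, it was assumed to vary like the other fraction. Ratios near 0 ran through it, none of them called: Nars2 from -0.36 to 0.31, Ears2 from -0.055 to 0.072, Fars2 from -0.18 to 0.036, Vars2 from -0.12 to 0.056 and Cars2 from -0.00028 to 0.073. The cause of these changes was not tested. Depth limits Wars2, Pars2 and Fars2 most, with 40 to 191 counts per library.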
